A study of Citrus sinensis with 36 samples.

Results

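UDP-glycosyltransferases (UGTs) are enzymes that move a sugar from a UDP-sugar onto another molecule, and in plants the largest group of them acts on small molecules such as flavonoids, phenolics, terpenoids and hormones. Of the 29654 genes in the deposited table of sweet orange (Citrus sinensis), 172 were counted as members. A gene was a member when its Swissprot description, which names the closest matching protein, contained UDP-glycosyltransferase, glucosyltransferase, rhamnosyltransferase or linamarin synthase and none of the words starch, sucrose, trehalose, callose, cellulose and dolichyl. No description was given for 8148 genes, which therefore could not be members. The match was an Arabidopsis thaliana protein for 94 members and a Citrus protein for 1, so a description gives a likeness to a protein of another species and not a measured substrate. For 96 members the description gave only a numbered family such as UGT76. For others it named a terpenoid (28), a flavonoid (13) or a phenolic acid, coumarin or related phenol (13). The rest named a sterol (6), a hormone (4), a cyanogenic compound (3), a limonoid (1) or a protein or glycan (4). A class called other held the last 4, rumi matches and an enzyme of glycan assembly, whose descriptions used none of the words that set these classes. The wording also caught enzymes outside the small-molecule family, among them rumi-like and Protein O-glucosyltransferase 1 genes, a UDP-glucose:glycoprotein glucosyltransferase, an alpha-1,2-glucosyltransferase of glycan assembly and the sterol glucosyltransferases of family UGT80.

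The measurements were RNA-seq of fruit peel and fruit pulp at 220 days after flowering (DAF) from 3 Valencia oranges (VO, namely Rohde Red Valencia, Cutter Valencia and Delta Valencia) and 3 common sweet oranges (CO: Jincheng, Taoye and Xianfeng). Each variety and tissue had 3 libraries, so that VO pulp, CO pulp, VO peel and CO peel were each represented by 9 libraries and there were 36 in all. At this date the VO fruits were still at the coloring stage and the CO fruits were mature, so that orange type and maturity cannot be told apart in any comparison of VO with CO. The cultivar entry of the sample records writes SO where VO is used here, and the number of trees pooled for a replicate differs between the records and the methods of the study.

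Attaching glucose to an acceptor usually makes it more soluble in water and less reactive, and the glucoside is often stored in the vacuole. In citrus fruit, glucosylation turns bitter limonoid aglycones into limonoid glucosides that are not bitter, and glycosylated flavanones are among the most abundant phenolics of the fruit. Other enzymes of the family act on auxin, salicylic acid, abscisic acid, cytokinins and brassinosteroids, and neighbouring gene copies are common.

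Expression was given as FPKM, the fragments of a gene scaled to its length and to the mapped fragments of the library, so that levels of different genes can be compared per length. The length in the table resembles the span of a gene with its introns, so the level of a gene with long introns is understated. Depth ran over 14.8 to 18.8 M mapped fragments per library, and the median library had 16.9 M in VO pulp, 16.4 M in CO pulp, 16.1 M in VO peel and 16.2 M in CO peel. RNA integrity numbers in the study's library sheet were lower in VO peel than in CO peel, and lowest in the Rohde Red Valencia peel library of replicate 2. The tissue labels were checked with a plasma membrane-type ATPase 10 gene pair, a marker of the juice sacs, whose summed level in pulp was 30.4 to 42.6 FPKM in VO varieties and 24.4 to 55.1 FPKM in CO varieties, and in peel 1.55 to 3.49 FPKM in VO varieties and 1.07 to 3.96 FPKM in CO varieties. The list for cuticle, epidermis and oil glands did not separate the tissues. These are bulk tissues, in which fewer cells of a type and less RNA per cell cannot be told apart.

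A gene was tested in a tissue when at least 1 variety averaged 0.3 FPKM or more. Of the 172 members, 109 were tested in pulp and 120 in peel, 104 of them in both and 125 in at least 1 tissue. The other 47 stayed below the limit, with a highest variety mean of 0.295 FPKM, and 20 of these had no fragment in any library. In pulp 8 members passed through the level in VO alone and 8 through that in CO alone, and in peel these numbers were 4 and 7. For such members the filter itself favors the direction of the difference. Differences were computed on log2(FPKM + 0.1), a scale that understates the change of low genes. VO was compared with CO in limma with the variety as replicate (n = 3 varieties each), and a gene was called at a Benjamini-Hochberg adjusted p under 0.05 over all genes tested. These p-values measure the spread between 3 varieties of a type. An exact permutation test on 3 against 3 varieties cannot go below a two-sided p of 0.1.

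The levels of the members were very uneven. Over all libraries 34 members averaged 10 FPKM or more, 54 averaged 1 to 10 FPKM and 50 averaged less than 0.1 FPKM. The summed level of the 172 members was 2364 ± 157 FPKM in VO pulp and 3210 ± 155 FPKM in CO pulp, and 2134 ± 129 FPKM in VO peel and 2708 ± 186 FPKM in CO peel (SD, n = 3 varieties each). In both tissues every VO variety lay below every CO variety in this sum. The 6 highest members were taken anew in each type and tissue. They held 69.9% of the sum in VO pulp, 73.3% in CO pulp, 56.6% in VO peel and 59.3% in CO peel. The sums thus mostly follow a few genes.

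**Figure D1:**
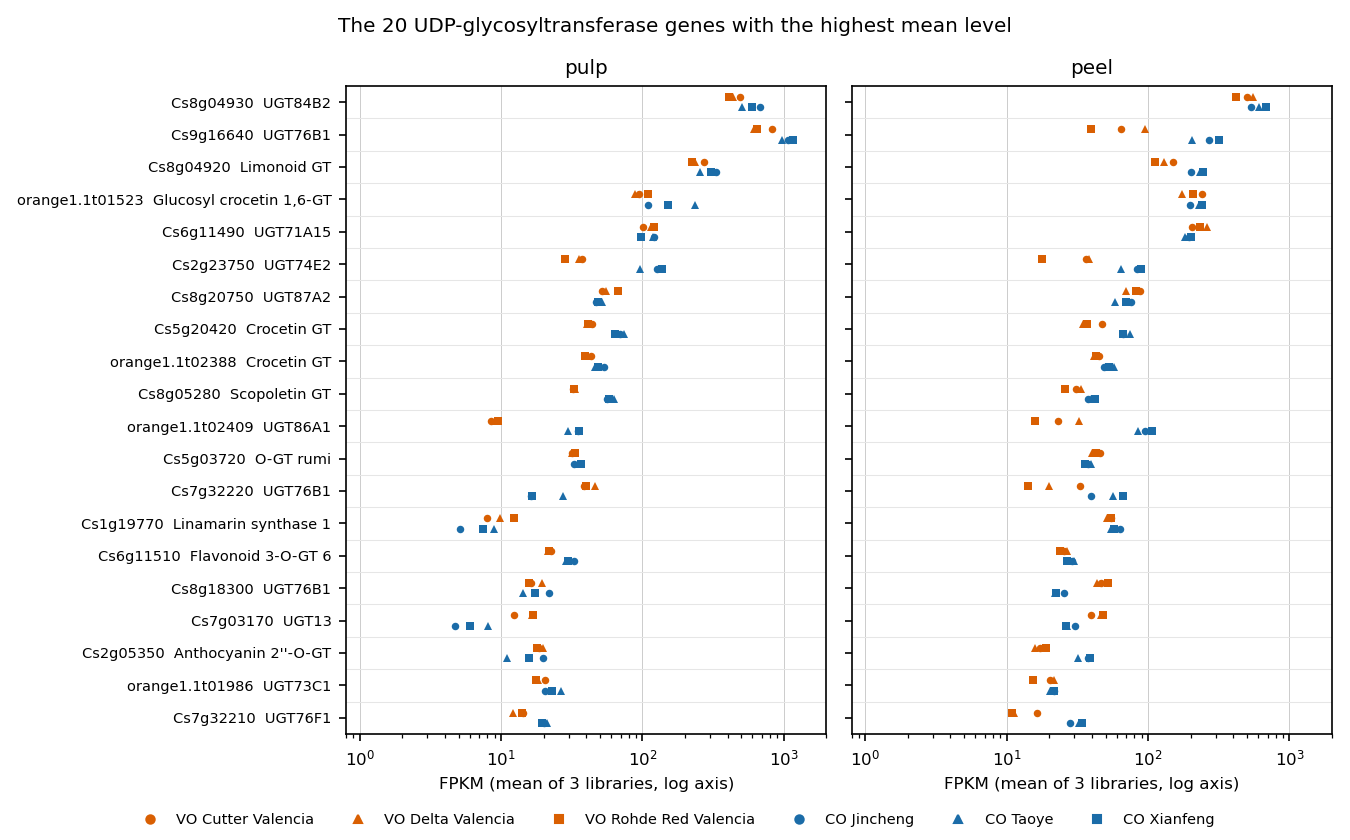
Level (FPKM, log axis, mean of 3 libraries per variety) of the 20 members with the highest mean over all libraries, in pulp and in peel, with a point for each VO and CO variety. Cs9g16640, matched to UGT76B1, lay between 619 and 1153 FPKM in pulp and between 39.4 and 317 FPKM in peel, while Cs8g04930, matched to UGT84B2, lay between 406 and 683 FPKM in both.

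Cs8g04930 had the highest mean level of all members. Its description is UGT84B2, and A. thaliana enzymes of the UGT84B group glucosylate the auxin indole-3-acetic acid. Its level was 491, 434 and 406 FPKM in pulp of the VO varieties Cutter Valencia, Delta Valencia and, last, Rohde Red Valencia, against 673, 510 and 597 FPKM in pulp of Jincheng, Taoye and Xianfeng. Values of the varieties of a type are given in this order from here on. The groups did not overlap, but the difference of -0.41 (log2, SE 0.14) did not pass the test (adjusted p = 0.0866), and without Taoye it did (adjusted p = 0.0468). In peel it was 501, 552 and 418 FPKM in VO and 535, 607 and 683 FPKM in CO, a difference of -0.31 (adjusted p = 0.228). Cs9g16640 followed, matched to A. thaliana UGT76B1, which glucosylates isoleucic acid, salicylic acid and N-hydroxypipecolic acid. It had 825, 619 and 649 FPKM in the VO pulps and 1078, 967 and 1153 FPKM in the CO pulps, and 64.5, 94.7 and 39.4 FPKM in the VO peels and 270, 203 and 317 FPKM in the CO peels. The 9 VO libraries were below the 9 CO libraries in each tissue. The difference was -0.62 (SE 0.16) in pulp (adjusted p = 0.0385) and -2.06 (SE 0.33) in peel (adjusted p = 0.00943). The pulp call was lost without Delta Valencia, Rohde Red Valencia, Jincheng or Xianfeng (adjusted p = 0.0767 to 0.142), whereas the peel call held without each variety.

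Cs8g04920 was the only member matched to a Citrus protein, the limonoid UDP-glucosyltransferase of Citrus unshiu. In pulp it had 272, 235 and 223 FPKM in the VO varieties and 331, 256 and 305 FPKM in the CO varieties, so the ranges of the types overlapped. In peel it had 149, 130 and 112 FPKM in the VO varieties and 200, 233 and 245 FPKM in the CO varieties, with no VO library above 151 FPKM and no CO library below 196 FPKM. The difference passed the test in peel (-0.80, SE 0.14, adjusted p = 0.0115) and not in pulp (-0.29, SE 0.13, adjusted p = 0.167). The test of whether it differed between the tissues gave 0.51 (adjusted p = 0.119). It stood beside Cs8g04930 in the order of RefSeq genes.

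Of the 6 members with the highest mean over all libraries, the remaining 3 differed in how they compared between the types. Cs2g23750 matched UGT74E2, which in A. thaliana glucosylates indole-3-butyric acid. Its level was 37.1, 35.4 and 28.2 FPKM in the VO pulps and 126, 95.3 and 137 FPKM in the CO pulps. It was thus lower in every VO pulp than in every CO pulp, by -1.82 (SE 0.16, adjusted p = 0.00185), and in peel it was lower by -1.43 (SE 0.30, adjusted p = 0.0212). The peel call was lost without Jincheng or Xianfeng (adjusted p = 0.0636 and 0.0768). orange1.1t01523, matched to a Gardenia enzyme that adds glucose to glucosylated crocetin, averaged 97.5 ± 10.4 FPKM in VO pulp and 166 ± 64.2 FPKM in CO pulp, where Taoye alone reached 236 FPKM. Its differences of -0.70 in pulp (adjusted p = 0.109) and -0.11 in peel (adjusted p = 0.643) did not pass the test, and without Jincheng the pulp difference did (adjusted p = 0.0398). Cs6g11490, matched to apple UGT71A15, which glucosylates phloretin, averaged 112 ± 9.62 FPKM in VO pulp and 112 ± 13.2 FPKM in CO pulp, and 233 ± 28.5 FPKM in VO peel and 192 ± 9.80 FPKM in CO peel (SD, n = 3). Neither difference passed the test (adjusted p = 0.992 and 0.143).

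Of the 109 members tested in pulp, 39 were called, 15 higher and 24 lower in VO than in CO, whereas over all genes tested 19.5% were called, 12% higher and 7.48% lower. Of the 120 tested in peel, 50 were called, 24 higher and 26 lower, against 20.4% over all genes, 13.2% higher and 7.15% lower. The median difference of the members was -0.16 in pulp and -0.04 in peel (log2), beside 0.02 and 0.05 over all genes. Among the 34 members that averaged 10 FPKM or more, 6 were higher and 10 lower in VO pulp and 7 higher and 14 lower in VO peel. Over all genes of that level 10.9% were higher and 10.3% lower in pulp, and 12.3% and 9.96% in peel. The variety means of the types did not overlap for 59 members in pulp and 70 in peel, where the shares over all genes were 42.7% (23.8% higher, 18.9% lower in VO) and 41.7% (25.9% higher, 15.8% lower). A stricter rule asked for each of the 9 comparisons of a VO with a CO variety, with libraries as replicates, to be called with the same sign and a difference of at least 1 (log2). It was met by 13 members in pulp (6 higher, 7 lower) and 11 in peel (4 higher, 7 lower), beside 3.79% and 2.81% of all genes (2.58% higher and 1.21% lower in pulp, 1.63% and 1.18% in peel). The counts changed in fits that left out a variety and so hold fewer varieties. Without Delta Valencia 6 and 16 members were called higher and lower in pulp, and without Rohde Red Valencia 6 and 18. In these fits 7.84% and 7.71% of all genes were called. In peel the counts were 12 and 21 without Cutter Valencia, 10 and 15 without Rohde Red Valencia, 17 and 16 without Jincheng and 13 and 13 without Xianfeng. The share of all genes called in peel was 12.2% without Cutter Valencia, 9.39% without Rohde Red Valencia, 12.4% without Jincheng and 8.34% without Xianfeng.

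Genes of other tissues and organelles differed between the types as well. Of 36 chloroplast genes tested in pulp 23 were higher and 0 lower in VO, and of 38 tested in peel 23 were higher and 0 lower. Their summed level ranged over 253 to 286 FPKM in VO pulp and 135 to 139 FPKM in CO pulp, and over 289 to 530 FPKM in VO peel and 123 to 230 FPKM in CO peel, and 3 of the 45 listed had no fragment. Vascular and segment membrane genes, including xylem proteases, cellulose synthases of the secondary wall and laccases, were at 4.14 to 5.83 FPKM in VO pulp and 1.57 to 2.57 FPKM in CO pulp, and at 17.4 to 24.1 FPKM in VO peel and 3.83 to 13.4 FPKM in CO peel. Of these, 3 of 9 tested were higher in pulp and 6 of 12 in peel, with 0 lower, and 7 of the 29 listed had no fragment. The list for cuticle, epidermis and oil glands summed to 173 to 207 FPKM in VO pulp and 89.5 to 254 FPKM in CO pulp, and to 158 to 193 FPKM in VO peel and 188 to 262 FPKM in CO peel. In it 11 of 25 were higher and 3 lower in pulp, 6 of 30 higher and 5 lower in peel, and 9 of the 68 listed had no fragment. The part of these genes' tissues in the differences of the members was not tested.

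Of the classes named by substrate, the phenolic and terpenoid ones had members called in both directions in each tissue, and the flavonoid class in peel. The class counts stand beside 12% higher and 7.48% lower over all genes in VO pulp, and 13.2% and 7.15% in VO peel. Among the flavonoid class 0 of 7 members tested in pulp were higher and 1 was lower in VO, and 2 of 7 were higher and 1 lower in peel. Its most abundant member, Cs6g11510, matched to strawberry UDP-glucose flavonoid 3-O-glucosyltransferase 6, had 22.5, 21.4 and 21.7 FPKM in the VO pulps and 32.6, 28.6 and 29.6 FPKM in the CO pulps. It was lower in every VO pulp, by -0.46 (SE 0.07, adjusted p = 0.00841), and its peel difference of -0.17 did not pass the test (adjusted p = 0.14). In the phenolic class 3 of 9 were higher and 2 lower in pulp, and 2 of 11 higher and 2 lower in peel. Cs8g05280 led this class, matched to the tobacco enzyme that glucosylates the coumarin scopoletin, with 32.4, 33.1 and 32.9 FPKM in the VO pulps and 56.5, 63.2 and 58.3 FPKM in the CO pulps. The VO pulps lay close together and well below the CO pulps (-0.85, SE 0.07, adjusted p = 0.00124). In peel the call (-0.40, adjusted p = 0.0441) was lost without each variety other than Delta Valencia (adjusted p = 0.0794 to 0.139). Cs8g05280 matched the same RefSeq gene as its neighbour Cs8g05270. Few reads were assigned to that neighbour, which averaged 0.00624 FPKM over all libraries against 40.5 FPKM for Cs8g05280.

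The terpenoid class held 28 members, named for iridoids, crocetin and other terpenoids. Of 21 tested in pulp 2 were higher and 6 lower in VO, and of 25 tested in peel 7 were higher and 6 lower. Descriptions of 7-deoxyloganetin, 7-deoxyloganetic acid and iridoid glucosyltransferases come from Gardenia and Catharanthus, where these enzymes act on iridoids. Of 3 genes matched to linamarin synthase, the cassava enzyme that glucosylates acetone cyanohydrin, 1 was lower in VO pulp and 1, Cs1g19740, higher in VO peel (0.29), a call lost without each variety other than Delta Valencia (adjusted p = 0.0624 to 0.146). In the hormone class 1 of 2 was higher in VO pulp, and the 1 tested in peel was not called. Its most abundant member, Cs8g05320, matched to an adzuki bean enzyme that makes the glucose ester of abscisic acid, had 0.287 ± 0.0195 FPKM in VO pulp and 0.432 ± 0.0665 FPKM in CO pulp (adjusted p = 0.256), and 1.59 ± 0.937 FPKM in VO peel and 0.835 ± 0.240 FPKM in CO peel (adjusted p = 0.222). The peel value in VO came mostly from Cutter Valencia at 2.67 FPKM.

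Sterol glucosyltransferases, which put glucose on membrane sterols, were not called between the types in either tissue (limma, 0 of 5 in each, and at an unadjusted p under 0.05 0 in pulp and 1 in peel). Their differences lay between -0.10 and 0.51 in pulp and between -0.25 and 0.09 in peel. Their highest member, Cs3g21440, matched to UGT80B1, had 12.6 ± 1.21 FPKM in VO pulp and 12.9 ± 1.74 FPKM in CO pulp. Cs8g20220, matched to Protein O-glucosyltransferase 1, which in animals adds glucose to serines of extracellular protein domains, was the only called gene of the protein and glycan class. It had 21.8, 20.1 and 21.2 FPKM in the VO peels and 16.7, 16.4 and 16 FPKM in the CO peels (0.36, SE 0.06, adjusted p = 0.00962), and 16.9 ± 0.409 FPKM in VO pulp and 16.3 ± 0.891 FPKM in CO pulp (adjusted p = 0.568). Cs5g03720, matched to Drosophila rumi, which glucosylates Notch, was at 32.3 ± 0.912 FPKM in VO pulp and 34.7 ± 1.88 FPKM in CO pulp and was not called (adjusted p = 0.32 in pulp and 0.102 in peel).

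**Figure D2:**
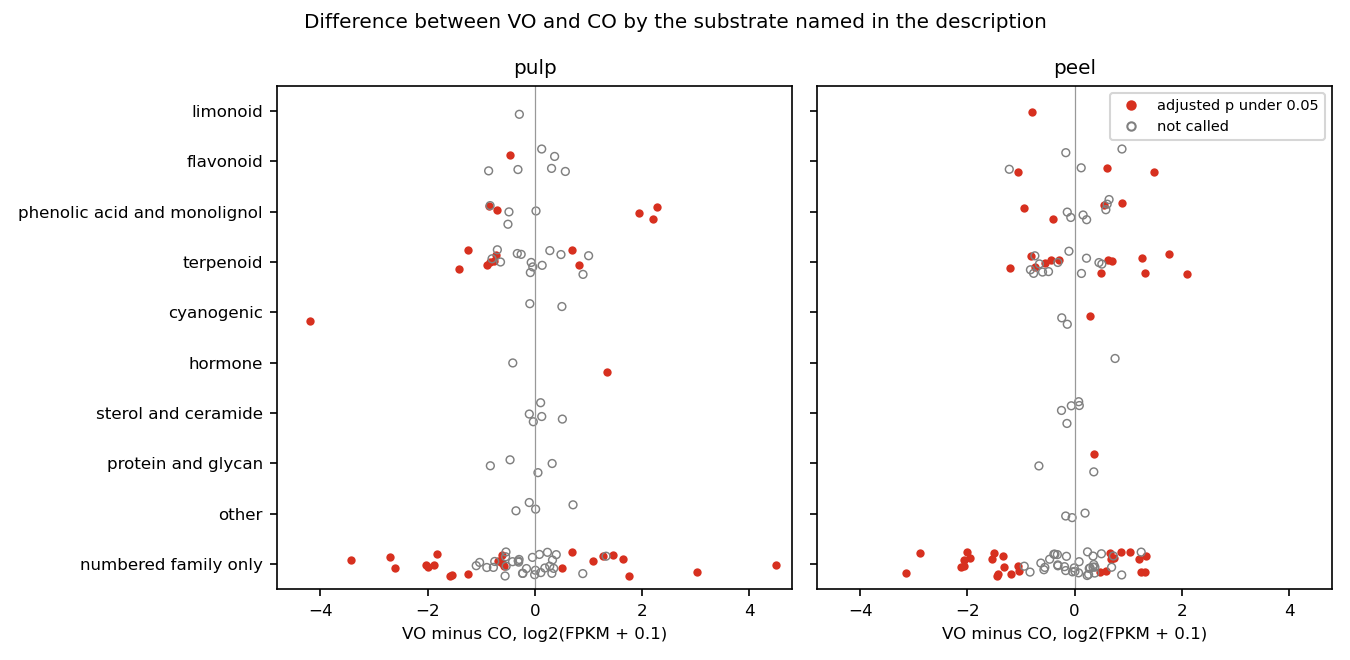
Difference between VO and CO (log2 scale, horizontal axis) of each tested member in pulp and in peel, in a row for each class of substrate named in the description. Filled points passed the test at an adjusted p under 0.05 and open points did not; the numbered families hold the widest range in pulp, -3.43 to 4.49, apart from the linamarin synthase match at -4.19.

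On the log2(FPKM + 0.1) scale the largest rise in VO pulp was that of Cs6g22150, matched to UGT83A1. It had 2.90, 6.17 and 4.13 FPKM in the VO pulps, against 0.175, 0.0344 and 0.1 FPKM in the CO pulps. Its 9 VO libraries held 1232 fragments of the gene and the 9 CO libraries held 29. In pulp it passed the limit for testing through VO alone. The difference was 4.49 (log2, SE 0.36, adjusted p = 0.00124), and it fell to 2.25 when 1 FPKM was added in place of 0.1. Of the genes matched to hydroquinone glucosyltransferase, which in Rauvolfia makes the phenolic glucoside arbutin, 3 were also called higher. Cs2g14250 had 6.01, 7.02 and 7.45 FPKM in the VO pulps and 0.844, 2.47 and 1.33 FPKM in the CO pulps, so that the lowest VO variety was above the highest CO variety (2.20, SE 0.34, adjusted p = 0.00836). orange1.1t00471 had 8.04, 12.2 and 13 FPKM in the VO pulps and 2.19, 3.52 and 2.76 FPKM in the CO pulps, again without overlap (1.94, SE 0.23, adjusted p = 0.00352). Cs6g03340 had 1.48, 2.36 and 3.53 FPKM in the VO pulps and 0.233, 0.727 and 0.348 FPKM in the CO pulps (2.28, SE 0.42, adjusted p = 0.0134). Its call was lost without Delta Valencia or Rohde Red Valencia (adjusted p = 0.0508 and 0.0548). The calls of Cs6g22150, Cs2g14250 and orange1.1t00471 held without each variety. Among other genes matched to hydroquinone glucosyltransferase, orange1.1t00470 differed by -0.48 and Cs6g03330 by 0.02 in pulp, and neither was called.

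Further members higher in VO pulp were expressed in both tissues. Cs2g28360, matched to UGT90A1, had 28.1, 36.1 and 31.0 FPKM in the VO pulps and 13.1, 8.50 and 7.27 FPKM in the CO pulps. Every VO pulp was more than 2 times above every CO pulp (1.75, SE 0.22, adjusted p = 0.00393). Cs7g03170, matched to mango UGT13, which attaches glucose to benzophenones through carbon, had 12.2, 16.5 and 16.7 FPKM in the VO pulps and 4.75, 8.02 and 6.07 FPKM in the CO pulps (1.28, SE 0.21, adjusted p = 0.00972). Cs6g11170, matched to Gardenia 7-deoxyloganetin glucosyltransferase, had 9.77, 10.9 and 10.8 FPKM in the VO pulps and 5.72, 5.33 and 6.5 FPKM in the CO pulps (0.83, SE 0.10, adjusted p = 0.0031). These 3 genes kept their calls without each variety and were higher in VO peel as well. Cs1g08110, matched to A. thaliana UGT79B3, which acts on anthocyanins under cold, had 0.235, 1.53 and 0.912 FPKM in the VO pulps and no fragment in the 9 CO pulp libraries. It had 240 fragments in VO pulp. Against a floor of 3 fragments over the 9 CO libraries, the mean of the VO varieties was at least 80.3-fold higher. This bound covers the counting error in CO and not the spread between the VO varieties. In pulp Cs1g08110 passed the limit for testing through VO alone. With 0.01 FPKM added in place of 0.1 its difference (6.13) exceeded that of Cs6g22150 (5.64). Its call was lost without Delta Valencia or Rohde Red Valencia (adjusted p = 0.0553 and 0.0710).

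On the same scale the largest fall in VO pulp was that of Cs1g19730, matched to linamarin synthase 2. It had 0.616, 0.337 and 0.626 FPKM in the VO pulps and 8.28, 12 and 12.3 FPKM in the CO pulps. The highest VO pulp library was at 0.896 FPKM and the lowest CO pulp library at 7.36 FPKM, and the difference was -4.19 (SE 0.26, adjusted p = 0.000609). Its neighbours with the same kind of match did not share this: Cs1g19740 differed by -0.09 (adjusted p = 0.859) and Cs1g19770 by 0.51 (adjusted p = 0.178) in pulp. These 2 neighbours matched the same RefSeq gene, and Cs1g19730 matched another. orange1.1t05657, matched to UGT74E2, had 0.0936, 0.204 and 0.0528 FPKM in the VO pulps and 1.82, 1.83 and 2.66 FPKM in the CO pulps (-3.43, SE 0.33, adjusted p = 0.00194), and this short gene model held only 7 fragments in VO and 128 in CO. With 0.01 FPKM added it came before Cs1g19730 (-4.87 and -4.45). Cs2g18270, matched to UGT74F1, which in A. thaliana glucosylates salicylic acid, had 0.0656, 0.0897 and 0.0712 FPKM in the VO pulps and 1.08, 0.921 and 1.17 FPKM in the CO pulps (-2.70, SE 0.21, adjusted p = 0.00113). Of the 8 members of UGT74 tested in pulp 4 were lower and 0 higher in VO, these 2 and Cs2g23750 among them, and of the 9 tested in peel 1 was lower and 1 higher, beside the shares of 7.48% and 7.15% lower over all genes. The calls of Cs1g19730, orange1.1t05657 and Cs2g18270 held without each variety. In pulp orange1.1t05657 and Cs2g18270 passed the limit for testing through CO alone.

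Of the other large falls in VO pulp, orange1.1t01984 matched UGT73C3, of a group with A. thaliana members that act on brassinosteroids and zeatin. It had 2.03, 1.90 and 1.51 FPKM in the VO pulps and 7.43, 14.6 and 13.8 FPKM in the CO pulps (-2.61, SE 0.27, adjusted p = 0.00222). Cs1g20510, matched to UGT91A1, had 1.03, 0.985 and 1.05 FPKM in the VO pulps and 4.41, 3.57 and 5.01 FPKM in the CO pulps (-1.99, SE 0.14, adjusted p = 0.000884). orange1.1t02409, matched to UGT86A1, had 8.42, 9.14 and 9.53 FPKM in the VO pulps and 35, 29.9 and 35.7 FPKM in the CO pulps (-1.88, SE 0.09, adjusted p = 0.000361). In none of these 3 genes did the types overlap, and the calls held without each variety. Cs9g16650, matched to UGT76B1, was low in both types, at 0.224, 0.129 and 0.276 FPKM in the VO pulps and 0.731, 1.19 and 1.64 FPKM in the CO pulps (-2.02, SE 0.37, adjusted p = 0.0136), and its call was lost without Delta Valencia (adjusted p = 0.0525). It passed the limit for testing through CO alone.

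**Figure D3:**
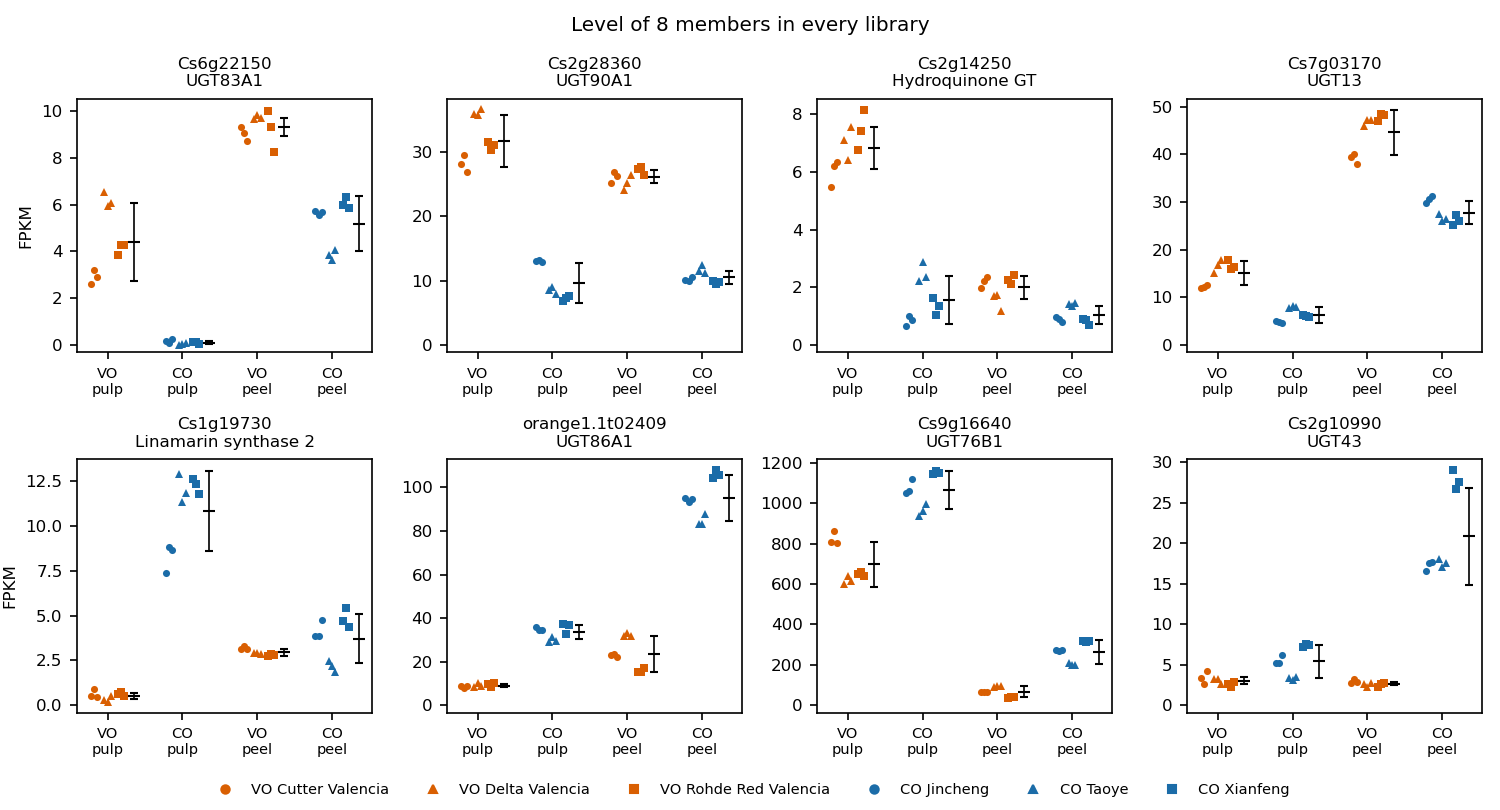
Level (FPKM, vertical axis, a scale for each gene) of 8 members in every library, by type and tissue, with a symbol for each variety. The black bar beside each group is the mean of its 3 variety means with their SD; for Cs6g22150 the VO pulp libraries lie between 2.61 and 6.54 FPKM and the CO pulp libraries between 0 and 0.264 FPKM, and for Cs1g19730 the order is the opposite.

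In peel the members with the largest rises in VO were mostly of low level. Cs6g11190, matched to 7-deoxyloganetin glucosyltransferase, had 2.26, 3.35 and 2.33 FPKM in the VO peels and 0.721, 0.369 and 0.655 FPKM in the CO peels (2.10, SE 0.31, adjusted p = 0.00776). Cs8g19550, matched to Catharanthus iridoid glucosyltransferase, had 1.32, 1.44 and 1.61 FPKM in the VO peels and 0.503, 0.569 and 0.521 FPKM in the CO peels (1.32, SE 0.14, adjusted p = 0.00309). Cs6g04360, matched to pear UGT71K2, had 1.22, 1.13 and 1.43 FPKM in the VO peels and 0.516, 0.341 and 0.471 FPKM in the CO peels (1.33, SE 0.20, adjusted p = 0.00783). In these 3 genes the lowest VO peel was above the highest CO peel, and the calls held without each variety. Cs9g18780, matched to rose anthocyanidin 5,3-O-glucosyltransferase, averaged 1.65 ± 0.422 FPKM in VO peel and 0.536 ± 0.190 FPKM in CO peel (1.48, adjusted p = 0.0168). Its call was lost without Cutter Valencia and also without Rohde Red Valencia (0.0551 and 0.0608 as adjusted p). Cs1g08110 averaged 1.39 ± 0.0503 FPKM in VO peel and 0.567 ± 0.206 FPKM in CO peel (1.19, adjusted p = 0.0178), and was not called without Cutter Valencia, Rohde Red Valencia or Jincheng (adjusted p = 0.0544 to 0.0667).

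Well expressed members were higher in VO peel too. Cs2g28360 had 26.1, 25.2 and 27.2 FPKM in the VO peels and 10.2, 11.7 and 9.71 FPKM in the CO peels, the clearest separation among them (1.31, SE 0.08, adjusted p = 0.00079). Cs8g18300, matched to UGT76B1, had 46.5, 43.3 and 52.2 FPKM in the VO peels and 25.3, 21.8 and 22.2 FPKM in the CO peels (1.03, SE 0.09, adjusted p = 0.00201). Cs7g03170 had 39.2, 46.8 and 47.9 FPKM in the VO peels and 30.5, 26.7 and 26.1 FPKM in the CO peels (0.68, SE 0.10, adjusted p = 0.00809), and Cs6g11170 averaged 18 ± 0.454 FPKM in VO peel and 11.1 ± 0.458 FPKM in CO peel (0.70, adjusted p = 0.00174). All 4 kept their calls without each variety. Cs2g14250 averaged 1.99 ± 0.404 FPKM in VO peel and 1.04 ± 0.318 FPKM in CO peel (0.89, adjusted p = 0.0463), and its call was lost without Cutter Valencia, Rohde Red Valencia, Jincheng or Xianfeng (adjusted p = 0.123 to 0.139).

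Among the falls in VO peel was Cs2g28370, matched to UGT90A1 like Cs2g28360. It had 1.42, 2.76 and 0.658 FPKM in the VO peels and 11.7, 12.8 and 14.3 FPKM in the CO peels (-3.14, SE 0.44, adjusted p = 0.00673), and in pulp its difference of -0.54 did not pass the test (adjusted p = 0.509). The 2 UGT90A1 matches thus differed between the types in opposite directions in peel. Cs2g10990, matched to UGT43 of Pueraria, which attaches glucose to isoflavones through carbon, had 2.93, 2.53 and 2.56 FPKM in the VO peels and 17.3, 17.5 and 27.8 FPKM in the CO peels (-2.89, SE 0.19, adjusted p = 0.000914). orange1.1t02409 had 22.9, 32.3 and 15.7 FPKM in the VO peels and 94.4, 84.8 and 106 FPKM in the CO peels (-2.06, SE 0.25, adjusted p = 0.00446). In each of them all VO peels lay below all CO peels. Cs5g11630, matched to UGT83A1, had 5.84, 4.23 and 5.81 FPKM in the VO peels and 19.4, 25 and 19.6 FPKM in the CO peels (-2.00, SE 0.16, adjusted p = 0.00164). These 4 calls held without each variety, as did that of Cs1g09360, matched to UGT92A1, with 3.38 ± 0.324 FPKM in VO peel and 9.58 ± 2.38 FPKM in CO peel (-1.45, adjusted p = 0.00438).

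Calls of several lower members in peel were lost in fits that left out a variety and so hold fewer varieties. Cs1g20510 averaged 0.402 ± 0.248 FPKM in VO peel and 1.92 ± 0.737 FPKM in CO peel (-2.12, adjusted p = 0.024), and was not called without Cutter Valencia, Rohde Red Valencia, Jincheng or Xianfeng (adjusted p = 0.0542 to 0.0873). Cs4g02990, matched to UGT78D2, a flavonoid 3-O-glucosyltransferase of A. thaliana, averaged 0.308 ± 0.246 FPKM in VO peel and 1.34 ± 0.434 FPKM in CO peel (-1.96, adjusted p = 0.0251). It was not called without Cutter Valencia, Delta Valencia, Jincheng or Xianfeng (adjusted p = 0.0663 to 0.0760), and it was not tested in pulp, where it had 7 fragments in VO and 10 in CO. orange1.1t01984 averaged 2.96 ± 1.32 FPKM in VO peel and 6.47 ± 0.643 FPKM in CO peel (-1.18, adjusted p = 0.0311), and only without Cutter Valencia did it keep its call (adjusted p without each other variety 0.0684 to 0.0841). Cs9g16650 averaged 0.133 ± 0.0317 FPKM in VO peel and 0.583 ± 0.227 FPKM in CO peel (-1.54, adjusted p = 0.0152), and was not called without Xianfeng (adjusted p = 0.0534). It passed the limit for testing in peel through CO alone, so the filter itself favored this direction.

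In both tissues together, 22 members were called, 7 higher in VO in both, 14 lower in both and 1 with opposite directions. Of the 104 members tested in both tissues these were 21.2%, 6.73%, 13.5% and 0.962%, and over the 16759 genes tested in both the shares were 8.16%, 5.11%, 2.77% and 0.28%. The question whether the difference between VO and CO was another in pulp than in peel was answered by comparing the pulp minus peel values of VO varieties with those of CO varieties (n = 3 each). It was called for 18 of 125 members, 10 with a higher and 8 with a lower value in pulp, beside 7.05% of all genes (3.81% and 3.24%). This count was lower in fits that left out a variety and so hold fewer varieties. It was 10 without Cutter Valencia, 5 without Delta Valencia, 4 without Rohde Red Valencia, 8 without Jincheng, 15 without Taoye and 4 without Xianfeng. The share over all genes fell in the same fits, to 2.28% without Cutter Valencia, 1.03% without Delta Valencia, 0.869% without Rohde Red Valencia, 2.53% without Jincheng, 6.52% without Taoye and 2.37% without Xianfeng. At an unadjusted p under 0.05 there were 47 members, and 35 to 48 without single varieties. The share of all genes at that unadjusted limit was not counted, so these numbers cannot be called particular to the members. Cs1g19730 (-3.95, SE 0.40, adjusted p = 0.00782), Cs6g22150 (3.63, SE 0.27, adjusted p = 0.00693) and Cs2g10990 (2.12, SE 0.20, adjusted p = 0.00693) kept the call without each variety. In peel Cs1g19730 had 3.18, 2.88 and 2.81 FPKM in VO and 4.16, 2.17 and 4.82 FPKM in CO, which overlapped (-0.24, adjusted p = 0.578), although without Taoye the peel difference passed the test (adjusted p = 0.023). Cs6g22150 had 9.02, 9.73 and 9.18 FPKM in the VO peels and 5.65, 3.84 and 6.05 FPKM in the CO peels, so it was well expressed in peel of both types and close to absent in CO pulp alone. Its peel difference of 0.86 (adjusted p = 0.0173) was not called without Delta Valencia or Rohde Red Valencia (adjusted p = 0.0520 and 0.0564). Cs2g10990 was at 3.41, 3.07 and 2.56 FPKM in the VO pulps and 5.52, 3.32 and 7.40 FPKM in the CO pulps (-0.77, adjusted p = 0.099), against the larger gap in peel, and without Taoye the pulp difference passed the test (adjusted p = 0.0125). Cs2g05350, matched to an Ipomoea enzyme that adds a further glucose to anthocyanidin 3-O-glucosides, had 17.3, 15.8 and 19 FPKM in the VO peels and 37.4, 32.1 and 38.6 FPKM in the CO peels (-1.05, SE 0.10, adjusted p = 0.00225), while in pulp the types overlapped (0.31, adjusted p = 0.301). The difference between its tissues (1.36, adjusted p = 0.014) was not called without Delta Valencia (adjusted p = 0.0526).

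**Figure D4:**
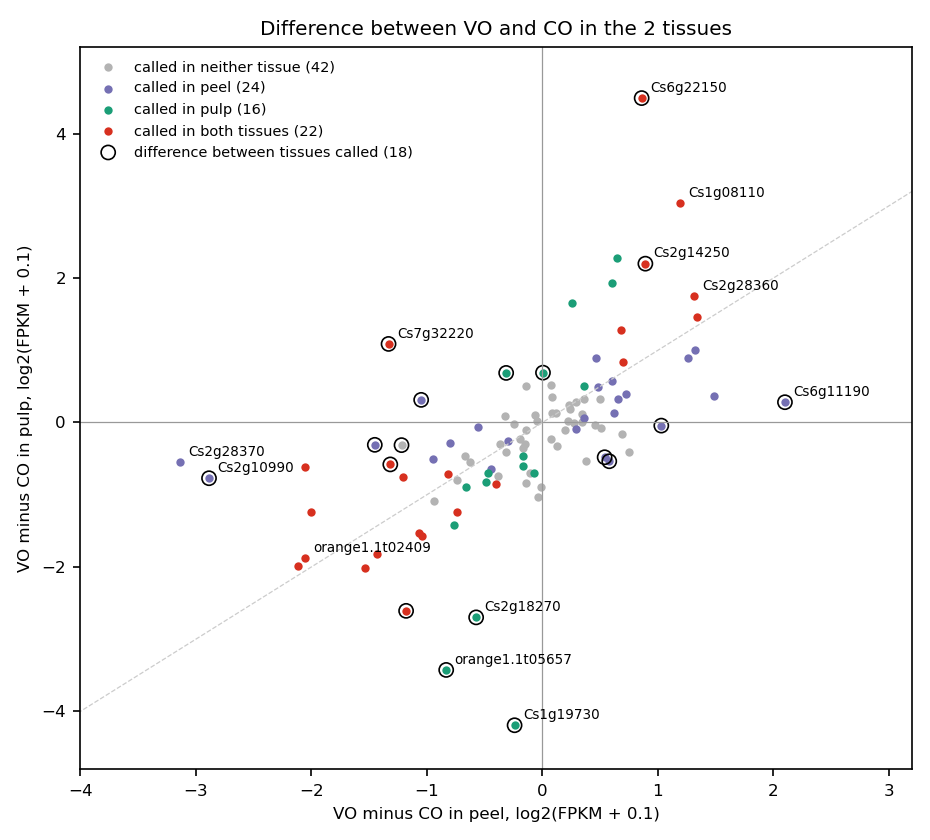
Difference between VO and CO in pulp (vertical axis) against that in peel (horizontal axis), both on the log2 scale, for the 104 members tested in both tissues. Colors give the tissues in which a member was called (22 in both, 16 in pulp, 24 in peel, 42 in neither), rings mark the 18 members whose difference was called as different between the tissues, and the dashed line marks equal differences.

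The only member called in opposite directions was Cs7g32220, matched to UGT76B1. It had 38.3, 46.5 and 40.1 FPKM in the VO pulps and 16.4, 27.2 and 16.6 FPKM in the CO pulps, and 32.9, 19.96 and 14.1 FPKM in the VO peels and 39.7, 56.4 and 66.8 FPKM in the CO peels. All VO varieties were above all CO varieties in pulp (1.09, SE 0.20, adjusted p = 0.0149) and below them in peel (-1.33, SE 0.33, adjusted p = 0.034). The difference between the tissues was 2.42 (adjusted p = 0.0201). Each of the 3 calls was lost without some variety: that in pulp without Delta Valencia or Rohde Red Valencia (adjusted p = 0.0560 and 0.0618), that in peel without Delta Valencia, Rohde Red Valencia, Taoye or Xianfeng (adjusted p = 0.0717 to 0.110), and that between tissues without Delta Valencia, Rohde Red Valencia or Xianfeng (adjusted p = 0.0538 to 0.0726).

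Cs7g32220 belonged to the longest run of neighbouring members. In the order of RefSeq genes, 54 of the members with a matched RefSeq gene lay in 21 runs with at most 2 other genes between neighbours, and this run held 5. Its members beside Cs7g32220 were described because of this position. Cs7g32210, matched to UGT76F1, had 14.2, 12.1 and 14.2 FPKM in the VO pulps and 20.1, 21.2 and 19.3 FPKM in the CO pulps (-0.58, adjusted p = 0.0072), and 12.8 ± 3.14 FPKM in VO peel and 31.6 ± 3.14 FPKM in CO peel (-1.32, adjusted p = 0.0053). Cs7g32230, matched to 7-deoxyloganetic acid glucosyltransferase, had 17.4, 17.3 and 16.7 FPKM in the VO pulps and 12.4, 11.7 and 8.25 FPKM in the CO pulps (0.69, adjusted p = 0.0255), and its peel difference of -0.31 did not pass the test (adjusted p = 0.193). This pulp call was lost without each of the 3 VO varieties (adjusted p = 0.0713 to 0.0881), and without Cutter Valencia the peel difference passed (adjusted p = 0.0322). Cs7g32240 averaged 4.89 ± 0.745 FPKM in VO peel and 7.20 ± 0.244 FPKM in CO peel (-0.56, adjusted p = 0.0223), a call lost without Jincheng or Xianfeng (adjusted p = 0.0690 and 0.0777), and was not called in pulp (-0.07, adjusted p = 0.684). Cs7g32250 reached 0.343 FPKM at most and was not called. Adjacent genes of this run therefore differed in the direction of the VO minus CO difference, most plainly Cs7g32210 and Cs7g32220 in pulp.

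**Figure D5:**
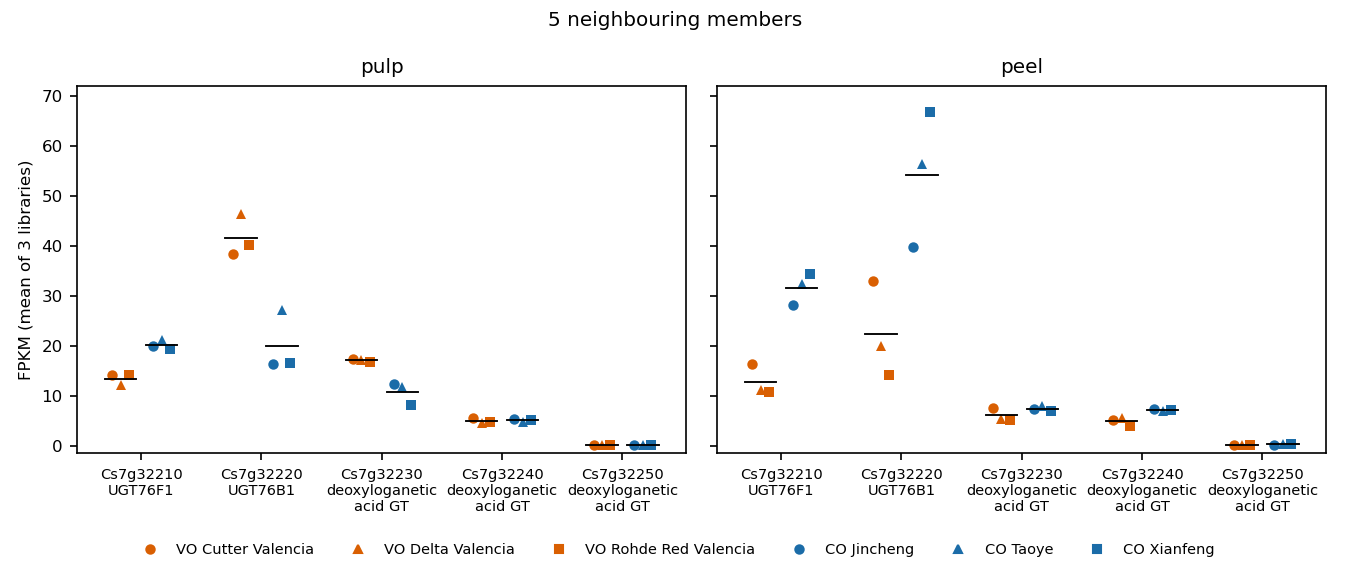
Level (FPKM, mean of 3 libraries per variety) of the 5 neighbouring members from Cs7g32210 to Cs7g32250 in pulp and in peel, with points for the VO and the CO varieties side by side. In pulp Cs7g32220 and Cs7g32230 lie higher in VO and Cs7g32210 lower, while in peel Cs7g32210 and Cs7g32220 both lie lower in VO.

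A run of 4 neighbours, all matched to UGT83A1, was described for the same reason. Besides Cs5g11630, which was lower in VO pulp as well (7.22 ± 1.56 FPKM in VO, 17 ± 1.76 FPKM in CO, -1.24, adjusted p = 0.00433), Cs5g11620 was lower in pulp (0.964 ± 0.305 FPKM in VO, 2.94 ± 0.678 FPKM in CO, -1.54, adjusted p = 0.011) and in peel (3.15 ± 0.844 FPKM in VO, 6.67 ± 1.71 FPKM in CO, -1.07, adjusted p = 0.0257). The peel call of Cs5g11620 was lost without Delta Valencia, Rohde Red Valencia or Jincheng (adjusted p = 0.0663 to 0.0851). Cs5g11610 averaged 1.38 ± 0.454 FPKM in VO pulp and 1.26 ± 0.491 FPKM in CO pulp, and 7.87 ± 1.29 FPKM in VO peel and 6.23 ± 1.32 FPKM in CO peel, and neither it nor Cs5g11650 was called. Family UGT83, with 15 members all told, had 3 higher and 2 lower of 8 tested in pulp and 2 higher and 2 lower of 9 tested in peel. The shares over all genes were 12% higher and 7.48% lower in pulp, and 13.2% and 7.15% in peel.

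Most members differed between pulp and peel of the same varieties. Of 125 members, 27 were higher and 73 lower in pulp than in peel, whereas over all genes 72.5% were called, 22.4% higher and 50.1% lower. The median difference over all genes was -0.23 with FPKM as deposited, -0.06 after median-of-ratios scaling and 0.06 after quantile normalization. Under median-of-ratios scaling 34 members were higher and 65 lower, beside 32.3% and 38.4% of all genes, and under quantile normalization 36 were higher and 55 lower, beside 38.5% and 31.7% of all genes. The scaling thus moved the balance of directions over all genes and over the members. On the log2(FPKM + 0.1) scale the largest differences toward pulp were those of orange1.1t04895, matched to cassava anthocyanidin 3-O-glucosyltransferase 5, at 8.95 FPKM in pulp and 0.753 FPKM in peel on average (3.65, adjusted p = 9.36e-07), and Cs9g18830, matched to Stevia UGT88B1, at 7.97 FPKM and 0.562 FPKM (3.64, adjusted p = 2.01e-05). Cs9g16640 followed with 882 FPKM in pulp and 165 FPKM in peel (2.76, adjusted p = 1.2e-05), then orange1.1t01118, matched to UGT73C2, with 7.24 FPKM in pulp and 1.253 FPKM in peel (2.49, adjusted p = 1.02e-05). In all 6 varieties the difference of Cs9g16640 was at least 1.86, and it reached 4.04 in Rohde Red Valencia. Cs8g04920, the limonoid glucosyltransferase match, was higher in pulp by 0.65 (SE 0.08, adjusted p = 0.000381).

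Toward peel the largest differences on that scale were those of Cs1g19740, a linamarin synthase 2 match, with 2.30 FPKM in pulp and 28.9 FPKM in peel (-3.67, adjusted p = 2.84e-06), and Cs3g08400, a UGT83A1 match, with 0.390 FPKM in pulp and 4.39 FPKM in peel (-3.46, adjusted p = 5.6e-06). orange1.1t01935, matched to UGT76B1, had 0.200 FPKM in pulp and 2.95 FPKM in peel (-3.44, adjusted p = 1.63e-06). Cs1g23720, matched to A. thaliana UGT72E1, which glucosylates coniferyl aldehyde of the lignin pathway, had 0.00852 FPKM in pulp and 1.16 FPKM in peel (-3.43, adjusted p = 1.05e-05). Their order depended on the 0.1 FPKM added: with 0.01 FPKM Cs1g23720 came first (-6.24) and Cs1g19740 last of the 4. These 4 genes and the 4 above kept direction and call under each scaling. Cs1g19770, the linamarin synthase 1 match, was also lower in pulp, by -2.74 (adjusted p = 6.09e-06), so that with Cs1g19740 both were peel genes in VO and CO alike. Cs1g19730 was lower in pulp than in peel in each VO variety (-2.85 to -2.02) and higher in each CO variety (0.98 to 2.42). Cs8g20220 was lower in pulp by -0.16 (adjusted p = 0.0113), a direction that turned to 0.02 under median-of-ratios scaling (adjusted p = 0.732).

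By family, 10 of 13 members of UGT76 were lower and 2 higher in pulp, 7 of 9 members of UGT83 were lower and 0 higher, and 2 of 9 members of UGT73 were lower and 4 higher. In the phenolic class 8 of 11 were lower and 3 higher, and in the terpenoid class 16 of 25 were lower and 3 higher. Over all genes 50.1% were lower and 22.4% higher, a balance that moved with the scaling as above, and the differences between families and classes were not tested.

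Varieties of a type differed from each other too. In an F-test over the 3 varieties of a type, in which the libraries served as replicates and set the spread behind the p-values, 50 of 109 members were called within VO pulp and 66 within CO pulp, and 64 of 120 within VO peel and 60 within CO peel. Over all genes these shares were 28.4%, 54.8%, 41.1% and 40.1%. Taoye lay farthest from the others of its type for 47 of the 66 members called in CO pulp, 23 times as the highest and 24 times as the lowest, and for 33 of the 60 called in CO peel. No VO variety was as often apart, with Cutter Valencia farthest for 24 of 50 in pulp and Delta Valencia for 24 of 64 in peel. How often each variety lay farthest over all genes was not counted, so these numbers cannot be called particular to the members. In CO pulp Cs2g28370 had 1.32, 6.28 and 2.58 FPKM in Jincheng, Taoye and Xianfeng, a range of 2.16 on the log2 scale (adjusted p = 5.3e-09), and Cs9g18830 had 13.7, 4.31 and 9.22 FPKM, a range of 1.65 (adjusted p = 5.41e-10). Taoye was thus the highest for the first and the lowest for the second.

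In CO peel the widest ranges were those of Cs9g18830 with 0.434, 0.364 and 1.23 FPKM in Jincheng, Taoye and Xianfeng (1.55, adjusted p = 0.00015) and orange1.1t04895 with 0.695, 2.01 and 0.679 FPKM (1.38, adjusted p = 0.00598). In VO peel orange1.1t01115, matched to UGT73C2, had 2.19, 0.391 and 1.73 FPKM in the VO varieties in the order used above, with Delta Valencia apart (2.26, adjusted p = 9.09e-07), and Cs2g28370 ranged over 1.92 (adjusted p = 1.22e-07). In VO pulp Cs1g08110 ranged over 2.28 (adjusted p = 7.47e-07) with Cutter Valencia lowest, and Cs6g03340 over 1.248 (adjusted p = 0.00865). Leaving out replicate 1 of each variety lowered the VO pulp count to 31, and the share over all genes fell from 28.4% to 17.3%.

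The genes that supply UDP-sugars or the flavonoid acceptors, and those that remove glucose again, were read from lists set by words in the descriptions. Of 15 UDP-sugar supply genes tested in pulp 3 were higher and 0 lower in VO, and of 15 in peel 2 were higher and 1 lower. Cs5g13300, matched to RHM1, which makes UDP-rhamnose, had 42.6 ± 4.03 FPKM in VO pulp and 32.2 ± 2.94 FPKM in CO pulp (0.40, adjusted p = 0.038). Of the core flavonoid genes, from chalcone synthase to dihydroflavonol reductase, 6 of 23 were higher and 0 lower in VO pulp and 4 of 27 higher and 0 lower in VO peel. Their summed level was 413 to 458 FPKM in VO pulp and 234 to 329 FPKM in CO pulp, and 442 to 537 FPKM in VO peel and 350 to 403 FPKM in CO peel, so that the types did not overlap. In peel the flavonoid 3'-monooxygenase matches orange1.1t03164 and orange1.1t03165 averaged 92.7 and 178 FPKM in VO and 38.3 and 109 FPKM in CO. In pulp they averaged 43.5 and 83.4 FPKM in VO and 7.17 and 37.3 FPKM in CO. The chalcone synthase match Cs3g19360 (0.08) and the chalcone isomerase match Cs7g28130 (0.21) were not called in peel (limma, adjusted p = 0.82 and 0.389). Cs7g28130 was called in pulp (2.38, adjusted p = 0.00223), and Cs3g19360 was not (-0.14, adjusted p = 0.842). Also called in pulp were the chalcone synthase match Cs2g14720 (3.69, adjusted p = 0.00666) and the chalcone isomerase match Cs7g29780 (2.82, adjusted p = 0.00618). The low chalcone synthase match Cs9g17060 was called in peel (1.60, adjusted p = 0.0248). Of the beta-glucosidases 3 of 14 were higher and 2 lower in VO pulp, and 4 of 18 higher and 2 lower in VO peel. Beside these lists, 12% of all genes tested were higher and 7.48% lower in VO pulp, and 13.2% and 7.15% in VO peel. Whether the lists differed from these shares was not tested.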

How the data were processed

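Peel and pulp of 6 sweet orange varieties were sequenced in 36 libraries (NEBNext Ultra RNA kit, unstranded, so overlapping and antisense genes cannot be told apart). According to the submitters' processing notes, the authors used TopHat2, RSEM and DESeq (version 1.10.1). The genome build is not given in the sources used here. The deposited table held FPKM values of 29654 genes with a gene length and a description, and was not scaled further. All values were whole numbers of fragments within 0.02, which gave 14.8 to 18.8 M mapped fragments per library. Intervals and floors of fragments cover counting error only.

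Genes with a variety mean of at least 0.3 FPKM were tested on log2(FPKM + 0.1) with limma 3.58.1 in R 4.3.3 (mean-variance trend, Benjamini-Hochberg adjustment over all genes tested). Libraries of a variety entered as their mean, and the types were compared in each tissue. Pulp minus peel differences were taken within a variety, and varieties within a type were compared with a moderated F-test on libraries. The 3 libraries of a variety are described as biological replicates, each pooled from several trees. The method was also run on simulated data, whose settings differed from the real spread, and no result given here rests on that run. Tables and plots used Python 3.11.15, pandas 2.3.3 and matplotlib 3.10.9.

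Members and lists were chosen with earlier results of these data known. Named members were, for each tissue, up to 8 rises and 8 falls with the largest difference among those called whose higher group averaged 1 FPKM or more, the 6 members of the highest level, the 4 largest called pulp and peel differences, up to 5 members with the largest difference between tissues, the 2 widest ranges between varieties in each test, and the most abundant member of each class. Cs2g05350, orange1.1t00470, orange1.1t01117, orange1.1t01977 and the neighbours of Cs7g32220 and Cs5g11630 were added after their values were seen. RefSeq (assembly DVS_A1.0) was used only for names and for the order of genes: 102 members matched 1 RefSeq gene each, and 12 of them shared it with another member, so their reads may be split between models. Alternatives were other pseudocounts, filters and scalings, another replicate unit, and fits that left out a variety, a replicate number or a library.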

Additional observations from a re-analysis of the deposited data

Results flagged for a closer look

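The VO minus CO difference differed between pulp and peel for 18 members in limma's test of that difference on the pulp minus peel values of the varieties (adjusted p = 0.00693 to 0.0494). The values below are the difference in pulp minus that in peel, on the log2 scale, and none was explained. They were negative for Cs1g19730 (linamarin synthase 2, -3.95), orange1.1t05657 (UGT74E2, -2.59), Cs2g18270 (UGT74F1, -2.13), Cs6g11190 (7-deoxyloganetin glucosyltransferase, -1.82), orange1.1t01984 (UGT73C3, -1.43), orange1.1t01117 (UGT73C3, -1.12), Cs8g18300 (UGT76B1, -1.07) and orange1.1t00470 (hydroquinone glucosyltransferase, -1.02). They were positive for orange1.1t01977 (UGT73C2, 0.69), Cs7g32210 (UGT76F1, 0.74), orange1.1t04895 (anthocyanidin 3-O-glucosyltransferase 5, 0.91), Cs7g32230 (7-deoxyloganetic acid glucosyltransferase, 1), Cs1g09360 (UGT92A1, 1.14), Cs2g14250 (hydroquinone glucosyltransferase, 1.31), Cs2g05350 (anthocyanidin 3-O-glucoside 2''-O-glucosyltransferase, 1.36), Cs2g10990 (UGT43, 2.12), Cs7g32220 (UGT76B1, 2.42) and Cs6g22150 (UGT83A1, 3.63). Of the 18, 3 kept the call without each single variety: Cs1g19730, Cs2g10990 and Cs6g22150. Cs2g05350 lost it only without Delta Valencia (adjusted p = 0.0526), and the other 14 lost it without 3 or more of the varieties.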

How the results depend on the processing

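No called difference between VO and CO of a named member changed sign under the alternatives tried, and 3 values reversed, all in pulp against peel: Cs8g20220 to 0.017 under median-of-ratios scaling, and Cs7g32240 to 0.029 and Cs7g32250 to 0.25 under quantile normalization. Of the values recomputed, 3649 stayed on their side of the threshold, 276 lost and 100 gained a call. With single varieties left out, members called higher numbered 6 to 18 in VO pulp and 10 to 23 in VO peel, and members called lower 16 to 30 and 13 to 22. In these fits 7.71% to 20% of all genes were called in pulp and 8.34% to 18.5% in peel. Without single replicate numbers or the Rohde Red Valencia peel library of replicate 2, the members called were 13 to 14 and 19 to 23 higher, and 22 to 24 and 24 to 26 lower. The share of all genes called was then 17.4% to 18.2% in pulp and 17.4% to 20.1% in peel. The call for the difference between tissues covered 4 to 15 members without single varieties, beside 0.869% to 6.52% of all genes. It covered 12 to 14 members without single replicate numbers, beside 5.22% to 5.48% of all genes. With the trend over the mean difference, an alternative added after seeing the data, it covered 12 members, beside 4.88% of all genes. Requiring all 9 comparisons of varieties left 6 higher and 7 lower in pulp and 4 and 7 in peel, beside 3.79% and 2.81% of all genes. Without single replicate numbers 31 to 37 members differed between varieties within VO pulp, beside 16.7% to 17.5% of all genes. Same-numbered libraries did not deviate together (r = -0.13 to 0.0537), so replicate numbers pair nothing here. With libraries as replicates and a replicate block, 29 higher and 44 lower were called in pulp and 42 and 42 in peel, and 57 members for the difference between tissues, beside 51.6%, 49.3% and 36.3% of all genes. That fit counts 9 libraries a type as replicates in place of 3 varieties, and the cause of the higher counts was not tested. The depth limits low members: Cs1g08110 had no fragment in CO pulp, and orange1.1t05657 had 7 in VO pulp.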
